A study of Mesocentrotus franciscanus with 18 samples.

Results

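A set of 100 Trinity gene groupings (clusters of assembled transcript contigs that stand for genes) was raised together in ALM-S 2010, ALM-L 2011 and ES-L 2010, 3 libraries from different tissues, sizes or years. The set was taken from 127,198 groupings, of which 23,188 had a mean CPM (counts divided by the library's total and multiplied by 1,000,000) of at least 2 over the 18 libraries. For each grouping, the deviation of a library was its log2(CPM + 1) minus the mean of the other 2 libraries of the same tissue and size. The members were chosen by these deviations, as the 100 groupings whose smallest deviation over the 3 libraries was highest. Their elevation in these libraries is therefore no finding, and values there are given as a description without a test.

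The libraries came from red sea urchins (*Mesocentrotus franciscanus*), a long-lived species, of a Small (young) and a Large (old) size category. The tissues were Aristotle's lantern muscle (ALM), which moves the jaw, radial nerve cord (RN) and esophagus (ES), each collected in 2010, 2011 and 2013. Groups are written as tissue and size (ALM-S for the muscle of Small animals), with 6 groups of 3 libraries each. No group received a treatment. Each library was 1 pool of RNA from several wild-caught animals, so p-values below measure the spread between pools and years and not between animals. By their names, 13 libraries (all ALM, all ES and RN-S 2013) form 1 library series, RN-S 2010 and RN-S 2011 another and the 3 RN-L libraries the last, so size and library series cannot be told apart within RN.

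Total counts ranged from 7,383,210 to 11,547,218 per library. The 3 libraries carried the groupings restricted to their labelled tissue. The 10 groupings restricted to ALM, defined without the 3 libraries, summed to 341 CPM in ALM-S 2010 and 644 CPM in ALM-L 2011, against 344 to 738 CPM in the other ALM libraries and at most 3.13 CPM in any ES or RN library. The 292 groupings restricted to ES summed to 28,931 CPM in ES-L 2010, against 18,293 to 36,506 CPM in the other ES libraries and at most 40.6 CPM elsewhere. None of the 100 members was among them.

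The genes that could be named within the set belong mostly to the ribosome. Ribosomal proteins build the large (Rpl) and small (Rps) subunit of the ribosome together with ribosomal RNA, and their short, abundant mRNAs are among the commonest transcripts of animal cells. They are made in matched amounts, and their mRNAs tend to vary together. The other named genes belong to oxidative phosphorylation, in which complex I (NADH dehydrogenase) passes electrons into the respiratory chain of mitochondria and ATP synthase uses the resulting proton gradient to make ATP.

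Only 9 of the 100 members could be linked to a named gene of the purple sea urchin *Strongylocentrotus purpuratus* (SPU gene, with names that begin with Sp), through counts printed in the study's gene lists. These were 7 ribosomal protein genes (Sp-Rpl23, Sp-Rpl24, Sp-Rpl29, Sp-Rpl30, Sp-Rps24, Sp-Rps27 and Sp-Rps28), Sp-Atp5h (a subunit of the stalk of ATP synthase) and Sp-Ndufb1 (an accessory subunit of complex I). All 9 links came from the list of genes that the study called for change with size in RN on these same libraries. The other 91 members have no gene name here and are given by their grouping. The grouping linked to Sp-Ndufb1, TRINITY_DN12168_c0_g1, held only 9.78% of that gene's printed counts. A second grouping, TRINITY_DN594_c0_g1, held 90.2% and lay outside the set at rank 267.

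Members were mostly abundant transcripts. Their mean CPM over the 18 libraries ranged from 2.06 to 34,329 with a median of 113. Of the 100, 49 had a mean of 100 to 1000 CPM and 6 a higher one, where 4.47% and 0.392% of the 23,188 groupings did. The pseudocount of 1 in the rule shrinks the deviations of low groupings. The members lay in 100 different Trinity components, and 16 of them shared a component with another grouping, between which the counting may have split reads.

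The smallest deviation ran from 1.20 in TRINITY_DN274_c0_g1 to 0.67 in TRINITY_DN1273_c1_g1, with a median of 0.79. Only 11 groupings exceeded 1 in all 3 libraries. The limit did not fall at a gap. Ranks 98 (TRINITY_DN24_c0_g1) and 99 (TRINITY_DN6307_c4_g1) stood at 0.675 and 0.672, and the last member, TRINITY_DN1273_c1_g1, at 0.670. Just outside it were TRINITY_DN25274_c0_g1 at 0.668, TRINITY_DN26771_c0_g1 at 0.667 and TRINITY_DN22_c0_g1, linked to Sp-Rpl37a, at 0.663.

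Over all 23,188 groupings, 7.90% deviated upwards in all 3 libraries and 55.3% downwards in all 3, so the set belongs to the minority that rose. The median deviation of the members was 0.84 in ALM-S 2010, 1.24 in ALM-L 2011 and 1.32 in ES-L 2010, where that of all 23,188 groupings was -0.36, -0.45 and -0.72. Across these groupings the deviations of the 3 libraries correlated with each other (Pearson r = 0.59 for ALM-S 2010 with ALM-L 2011, 0.54 for ALM-S 2010 with ES-L 2010 and 0.59 for ALM-L 2011 with ES-L 2010). These r are across genes of 1 table, which are not independent, and are given as a description.

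**Figure D1:**
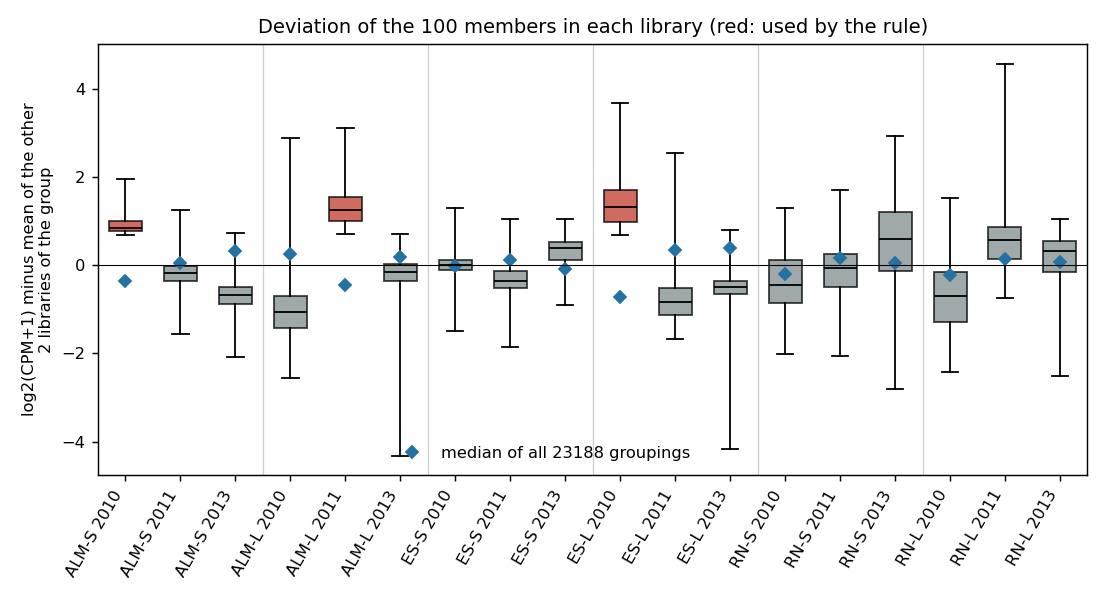
Deviation of the 100 members in each of the 18 libraries, as log2(CPM + 1) minus the mean of the other 2 libraries of the group (boxes, quartiles; line, median; whiskers, lowest and highest member), with the median of all 23,188 groupings as blue diamonds. The red boxes are the 3 libraries used by the rule, where every member lies above 0, and RN-S 2013 has the next highest median, 0.59.

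The set took up a large share of the counts in these libraries. It held 14.6% of the counts of ALM-S 2010, against 8.72 and 7.94% in ALM-S 2011 and ALM-S 2013. In ALM-L 2011 it held 17.6%, against 7.10 and 8.89% in ALM-L 2010 and ALM-L 2013. In ES-L 2010 it held 14.6%, against 3.23 and 4.69% in ES-L 2011 and ES-L 2013. Each of the 3 libraries was the highest of its group.

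A single grouping, TRINITY_DN1_c0_g1, carried between 31.7 and 67.1% of the set's counts, and the 10 most abundant members between 70.1 and 88.5%. TRINITY_DN1_c0_g1 stood at 87,290 CPM in ALM-S 2010 against 47,594 and 53,272 CPM, at 67,789 CPM in ALM-L 2011 against 37,348 and 44,800 CPM, and at 46,370 CPM in ES-L 2010 against 10,386 and 19,197 CPM. Without it the other 99 members still summed to 58,883 CPM in ALM-S 2010 (39,641 and 26,130 CPM in the other ALM-S libraries), 108,647 CPM in ALM-L 2011 (33,618 and 44,125 CPM) and 100,017 CPM in ES-L 2010 (21,932 and 27,713 CPM).

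**Figure D2:**
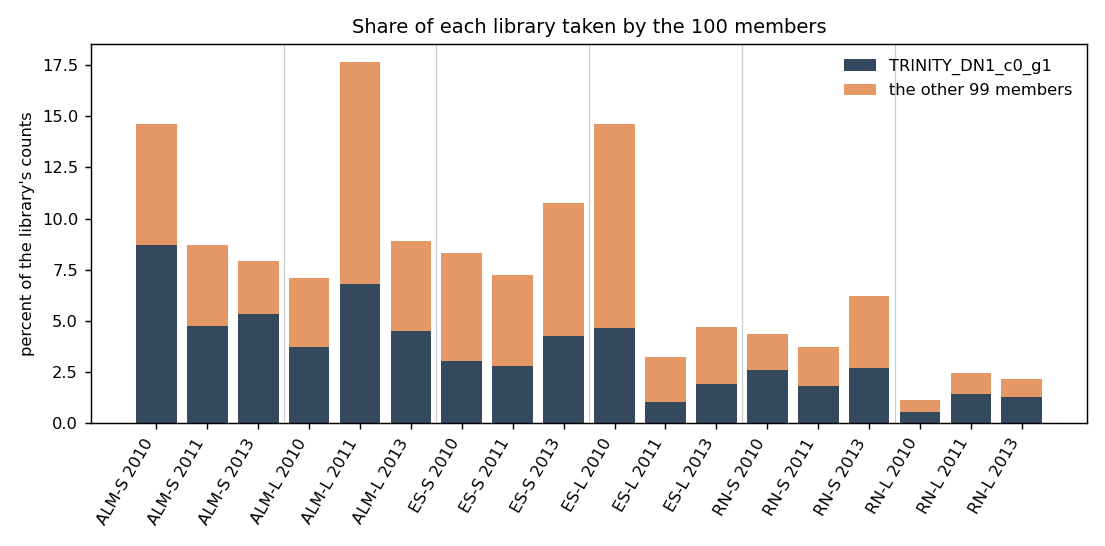
Percent of each library's counts held by TRINITY_DN1_c0_g1 (dark) and by the other 99 members (orange). The set holds 14.6, 17.6 and 14.6% of ALM-S 2010, ALM-L 2011 and ES-L 2010, and 1.15 to 2.46% of the RN-L libraries.

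In ALM-S, ALM-L and ES-L, the library in which the set was highest also had its counts most concentrated in few genes. The 50 most abundant groupings held 67.7% of ALM-S 2010 (61.3 and 57.9% in the other ALM-S libraries), 59.6% of ALM-L 2011 (49.76 and 50.04%) and 48.4% of ES-L 2010 (22.9 and 25.3%). The 50 most abundant groupings outside the set held 56.2% (54.8 and 51.8%), 47.5% (44.8 and 44.4%) and 38.5% (21.6 and 22.9%) of all counts of these libraries. The number of groupings with at least 1 count was lowest of the group in ALM-S 2010 (57,802) and ALM-L 2011 (60,269), but not in ES-L 2010 (69,557, with 69,007 in ES-L 2011). In ES-S, the 2013 library was likewise highest in both (33.9% in its 50 most abundant groupings, 10.7% in the set). RN differed. RN-S 2010 had the highest share in its 50 most abundant groupings (44.7%), but the set was highest in RN-S 2013 (6.22%). RN-L 2010 was highest of its group in the former (26.0%) and lowest in the set (1.15%). The part of library composition in the shared elevation was not tested.

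Of the 100 members, 95 were the highest of their group in all 3 libraries. The exceptions were TRINITY_DN72_c0_g2, TRINITY_DN14870_c0_g1, TRINITY_DN6966_c0_g1, TRINITY_DN1238_c3_g1 and TRINITY_DN911_c0_g1. TRINITY_DN72_c0_g2, for example, had 58.6 CPM in ALM-L 2010 and 29.7 CPM in ALM-L 2011, and was kept because ALM-L 2013 had only 1.14 CPM.

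The linked ribosomal protein genes within the set had closely similar profiles, which in ALM-S, ALM-L and ES-L follows in part from the rule. Sp-Rpl29 (TRINITY_DN39_c7_g1), of the large subunit, stood at 417, 262 and 183 CPM in ALM-S 2010, 2011 and 2013 and at 276, 1231 and 527 CPM in ALM-L. It had 944, 812 and 1177 CPM in ES-S, 1472, 389.8 and 541 CPM in ES-L, 87.7, 148 and 869 CPM in RN-S and 26.2, 98.5 and 82.8 CPM in RN-L. Thus ES-S was high in all 3 years, RN-L was the lowest group and RN-S 2013 stood at a multiple of the other RN-S libraries.

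Sp-Rps27 (TRINITY_DN693_c0_g1), of the small subunit, followed the same order with 571, 329.9 and 309 CPM in ALM-S, 375, 1351 and 758 CPM in ALM-L and 1016, 749 and 1244 CPM in ES-S. It had 1669, 452 and 564 CPM in ES-L, 336, 366 and 847 CPM in RN-S and 60.4, 188 and 158 CPM in RN-L. The 5 others (Sp-Rpl23, Sp-Rpl24, Sp-Rpl30, Sp-Rps24 and Sp-Rps28) ranged from 311 to 569.7 CPM in ALM-S 2010, from 891 to 2048 CPM in ALM-L 2011 and from 1007 to 1884 CPM in ES-L 2010. In each of these libraries all 5 were above their values in the rest of the group.

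The unnamed member with the highest smallest deviation, TRINITY_DN274_c0_g1, had nearly the same profile, with 542, 244 and 229 CPM in ALM-S, 265, 1127 and 499.6 CPM in ALM-L and 1265, 226 and 303 CPM in ES-L. Over the 9 ES-S, RN-S and RN-L libraries, which the rule did not use, its log2(CPM + 1) correlated at r = 0.998 with the mean of the 7 linked ribosomal members. TRINITY_DN2480_c0_g1, TRINITY_DN144_c0_g1 and TRINITY_DN122861_c3_g1 followed at 0.993, 0.992 and 0.991. In all, 32 of the other 93 members exceeded r = 0.9, as did 3.70% of the groupings outside the set. The points share tissue and library series, so these r are a description of likeness only.

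At the other end, 11 members had an r below 0, the lowest being TRINITY_DN911_c0_g1 (-0.81) and TRINITY_DN1023_c0_g1 (-0.78). TRINITY_DN1023_c0_g1 stood at 245, 142 and 89.5 CPM in ALM-S and 116, 271 and 135 CPM in ALM-L. It had 36.2, 37.6 and 37.3 CPM in ES-S, 67.6, 34.96 and 30.9 CPM in ES-L, 158, 165 and 78.5 CPM in RN-S and 113, 82.9 and 88.5 CPM in RN-L. Here ES was the low tissue, and RN-S 2013 was the lowest RN-S library. The set therefore shared the elevation in the 3 libraries without sharing 1 profile over tissues.

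Sp-Atp5h (TRINITY_DN1162_c2_g1) was highest in muscle, with 926, 707 and 379.6 CPM in ALM-S and 419, 944 and 503 CPM in ALM-L. It had 226, 198 and 183 CPM in ES-S, 217, 90.0 and 102.9 CPM in ES-L, 185, 160.1 and 249.6 CPM in RN-S and 37.6, 61.6 and 57.8 CPM in RN-L. The minor Sp-Ndufb1 grouping (TRINITY_DN12168_c0_g1) had 26.0, 13.3 and 11.1 CPM in ALM-S, 15.2, 29.7 and 17.4 CPM in ALM-L and 12.3, 6.61 and 5.98 CPM in ES-L. In the 15 libraries other than the 3 of the rule, 24 members had every ALM library above every ES library (6.99% of the 23,188 groupings did) and 5 the reverse (33.2%). These libraries served as the rule's baseline, so nothing is read from those counts.

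**Figure D3:**
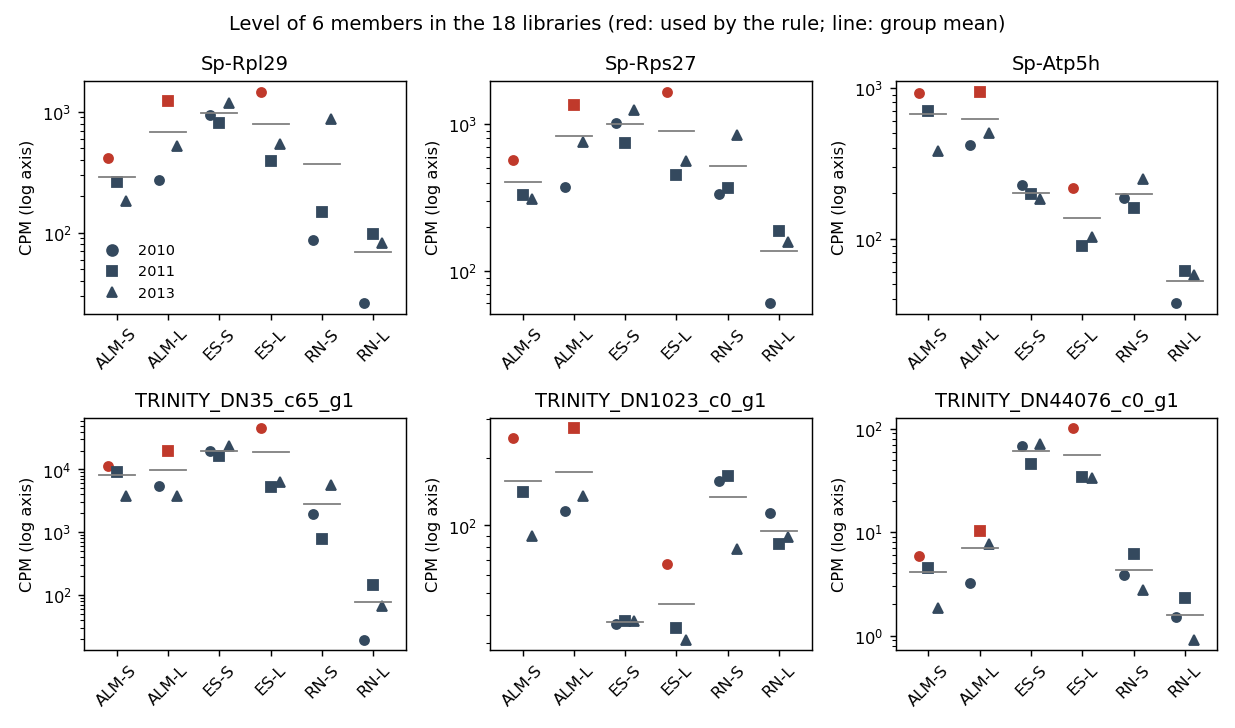
Level in CPM (log axis) of 6 members in the 18 libraries, by group, with the year as symbol, the group mean as a line and the 3 libraries of the rule in red. Each red point is the highest of its group, ES-S is high for Sp-Rpl29 and low for TRINITY_DN1023_c0_g1, and RN-L is the lowest group for 5 of the 6.

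The most abundant members also differed in tissue. TRINITY_DN35_c65_g1 had 11,505, 9191 and 3729 CPM in ALM-S, 5461, 19,688 and 3742 CPM in ALM-L and 45,204, 5259 and 6248 CPM in ES-L. TRINITY_DN107_c0_g1 was mainly in muscle, with 11,146, 7529 and 4690 CPM in ALM-S and 6878, 24,116 and 6598 CPM in ALM-L, and 4148, 1488 and 1946 CPM in ES-L. TRINITY_DN32_c0_g1 was similar, with 9969, 6656 and 4828 CPM in ALM-S and 5730, 13,386 and 7501 CPM in ALM-L. TRINITY_DN24_c0_g1, TRINITY_DN41_c0_g1, TRINITY_DN15472_c0_g1, TRINITY_DN335_c5_g1 and TRINITY_DN266_c0_g1 ranged from 449 to 1807 CPM in ALM-S 2010, and Sp-Rps28 (TRINITY_DN140638_c7_g1) completed the 10 most abundant.

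The other linked genes of the same pathways are given as a description, since their deviations are the values that the rule used. Of 13 linked ribosomal protein genes, 7 were members by the rule. Of the other 6, 5 deviated upwards in all 3 libraries, where 7.90% of all groupings did. These were Sp-Rpl37a (just outside the limit), Sp-Rps7 (rank 129), Sp-Rpl11 (rank 171), Sp-Rpl13 (rank 231) and Sp-Rpl15 (rank 1396). The exception, Sp-Rpl4 (rank 3336), had 825 CPM in ALM-L 2011 against 832 and 1003 CPM in the other ALM-L libraries.

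Of the 22 linked genes of the category Mitochondria at a mean of 2 CPM or more, each counted by its main grouping, 2 deviated upwards in all 3 libraries (Sp-Atp5h, a member, and Sp-Ndufb1) and 15 downwards, where 7.90 and 55.3% of all groupings did, so that these counts were near the background. The 15 included enzymes of intermediary metabolism and regulators, such as Sp-Pdk2 (pyruvate dehydrogenase kinase, -1.50, -1.97 and -3.11 in ALM-S 2010, ALM-L 2011 and ES-L 2010) and Sp-Opa1 (fusion of the inner mitochondrial membrane, -1.11, -1.41 and -2.07). Of 17 linked genes of Protein homeostasis other than ribosomal proteins, none deviated upwards in all 3 and 15 deviated downwards (55.3% of all groupings). The lists hold genes that the study chose for change with size on these libraries, so they do not represent their pathways, and the counts belong to the contrast that the rule used.

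In the libraries that the rule did not use, the set varied between years as well. Its median deviation was 0.01, -0.37 and 0.38 in ES-S 2010, 2011 and 2013, -0.45, -0.06 and 0.59 in RN-S and -0.71, 0.56 and 0.31 in RN-L. In ES-S 2013, 72 of the 100 members were the highest of their group and in RN-S 2013, 68 were, where 27.8 and 39.9% of all groupings were. RN-S 2013 is also the only RN library of the 13-library series. By median deviation the set was above the mean of the rest of its group in all 3 libraries of 2013 in these groups. In RN-L, however, the 2011 library was higher. Only 22 members were the highest of their group in RN-L 2013, where 31.7% of all groupings were. In 2010 the set stood at 0.01 in ES-S and below the rest of its group in RN-S and RN-L. The median deviation of ALM-L 2010 (-1.07) was taken against a baseline that holds ALM-L 2011. It and the positive values of ALM-S 2010 and ES-L 2010 follow from the rule, so nothing is read from them.

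The set was lower in the radial nerve cord of Large than of Small sea urchins, a contrast in which size and library series cannot be told apart. Of the 100 members, 97 passed the filter on low counts and 59 were called lower in RN-L (edgeR's quasi-likelihood test, adjusted p under 0.05 and log2 fold-change below -1), where 10.3% of the 29,047 groupings tested were called lower. None was called higher, where 11.4% of all were. Without adjustment, 79 of the 97 had a p under 0.05 in this test, as did 37.6% of all groupings tested. DESeq2 called 65 members lower and none higher, where 2.70 and 3.27% of all groupings in that fit were. The median log2 fold-change (RN-L minus RN-S) was -1.68 for the members and -0.04 for all groupings tested. A negative value was found in 94 members and in 51.3% of all groupings. The 3 members that were not tested (TRINITY_DN11337_c0_g1, TRINITY_DN53738_c0_g1 and TRINITY_DN62102_c0_g1) had at most 21 counts in any RN library.

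In CPM, 54 of the 100 members had all 3 RN-S libraries above all 3 RN-L libraries, where 13.9% of the 23,188 groupings did, and none had the reverse order, where 27.3% did. The set held 4.36, 3.70 and 6.22% of the counts of RN-S 2010, 2011 and 2013 and 1.15, 2.46 and 2.17% of those of RN-L.

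The 5 largest decreases among called members were those of TRINITY_DN35_c65_g1, TRINITY_DN11389_c0_g1, TRINITY_DN274_c0_g1, Sp-Rpl29 and Sp-Rpl24. TRINITY_DN35_c65_g1 had 1921, 791 and 5635 CPM in RN-S and 19.5, 147 and 68.1 CPM in RN-L, a log2 fold-change of -5.66 ± 0.96 (SE, n = 3 per group, edgeR adjusted p = 0.00689). The groups did not overlap, and the lowest RN-S library was above the highest RN-L library by a wide margin.

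TRINITY_DN11389_c0_g1 had 30.6, 27.5 and 4.94 CPM in RN-S and 0.7498, 5.01 and 3.24 CPM in RN-L, a log2 fold-change of -3.32 ± 0.79 (edgeR adjusted p = 0.0218). Here RN-S 2013 lay within the RN-L range. TRINITY_DN274_c0_g1 had 64.2, 83.0 and 531 CPM in RN-S and 14.4, 63.5 and 49.2 CPM in RN-L, a log2 fold-change of -2.88 ± 0.86 (edgeR adjusted p = 0.0450), and the RN-S values that lay closest to RN-L were those of 2010 and 2011.

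Sp-Rpl29 fell by 2.86 ± 0.86 on the log2 scale (edgeR adjusted p = 0.0453) and Sp-Rpl24 (TRINITY_DN43_c5_g1), of the large subunit, by 2.73 ± 0.72 (adjusted p = 0.0297). Sp-Rps27 fell by 2.40 ± 0.48 (adjusted p = 0.0122). Sp-Atp5h fell by 2.38 ± 0.30 (adjusted p = 0.00296). Sp-Rps24, Sp-Rpl23 and Sp-Rps28 were also called lower. Of 13 alternative fits, the call of Sp-Rpl29 was lost in 9, that of Sp-Rps28 in 9, that of Sp-Rpl23 in 6, that of Sp-Rps24 in 5 and that of Sp-Rpl24 in 4, and those of Sp-Rps27 and Sp-Atp5h in none. Sp-Rpl30 (log2 fold-change -2.31 ± 0.75, adjusted p = 0.0579) and the minor Sp-Ndufb1 grouping (-0.90 ± 0.38, adjusted p = 0.127) were not. Since these 9 genes were linked through a list chosen for change in RN on the same libraries, their decreases are not independent evidence.

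The members with the highest smallest deviation were split in RN. TRINITY_DN212_c1_g1 (rank 3) had 84.7, 60.3 and 85.0 CPM in RN-S and 16.7, 37.4 and 40.6 CPM in RN-L, a log2 fold-change of -1.76 ± 0.36 (edgeR adjusted p = 0.0127). TRINITY_DN41_c0_g1 (rank 5) and TRINITY_DN254_c0_g1 (rank 9) were called lower too, each with a log2 fold-change of -2.30 ± 0.44. TRINITY_DN15353_c0_g2, TRINITY_DN24985_c0_g1, TRINITY_DN2377_c0_g2, TRINITY_DN1880_c5_g1 and TRINITY_DN1023_c0_g1 were not called. TRINITY_DN24985_c0_g1 (rank 4), with 23.8, 12.1 and 22.1 CPM in RN-S and 22.2, 50.2 and 34.5 CPM in RN-L, was 1 of 3 members with a positive value (0.39 ± 0.39). The most abundant member, TRINITY_DN1_c0_g1, had 26,189, 17,964 and 26,842 CPM in RN-S and 5535, 14,140 and 12,656 CPM in RN-L, and was called lower (log2 fold-change -1.63 ± 0.39, adjusted p = 0.0217).

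Markers of cell types also differed between the same RN-L and RN-S libraries, where 10.3% of all groupings tested were called lower and 11.4% higher. The muscle genes Sp-Tropmy1 (tropomyosin) and Sp-Actinin, 2 of 2 called lower in RN-L, summed to 8662 to 13,250 CPM in RN-S and 2075 to 2471.15 CPM in RN-L. The 15 linked genes of Biomineralization (skeleton-forming cells), 11 of 14 tested called lower, summed to 484 to 679.5 CPM in RN-S and 28.7 to 86.0 CPM in RN-L. Of the linked nerve function genes, 99 of 122 tested were called higher and 12 lower. All 125 summed to 4215 to 5043 CPM in RN-S and 13,268 to 13,575 CPM in RN-L. The linked Immunity/Lectins genes went both ways, with 20 of 37 tested called higher and 11 lower. The study chose these lists for change with size on these libraries. Their part in the result was not tested, and in pooled bulk RNA fewer cells of a type and less RNA per cell cannot be told apart.

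The number of members called lower in RN-L varied with the libraries used. It was 48 without RN-L 2010 (8.60% of all groupings tested in that fit), 36 without RN-L 2011 (5.33%), 26 without RN-L 2013 (4.94%), 33 without RN-S 2010 (3.88%), 41 without RN-S 2011 (5.22%) and 39 without RN-S 2013 (6.09%), and no member was called higher in these 6 fits. It was lowest, at 14 (6.73% of all groupings), with 1 fit to all 18 libraries, where the members' median stayed at -1.60. That fit takes the spread of each member also from ALM-S, ALM-L and ES-L. There the rule chose members by 1 library departing from the rest, so the count of 14 is not free of the rule. The number was highest, at 71 (4.46%), with no filter on low counts. With library sizes from the column sums alone, which moved the median of all groupings to 0.38, 31 members were called lower and none higher, with a median of -1.25 for the members, and of all groupings 1496 were then called lower and 5139 higher against 2988 and 3314 with TMM factors.

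**Figure D4:**
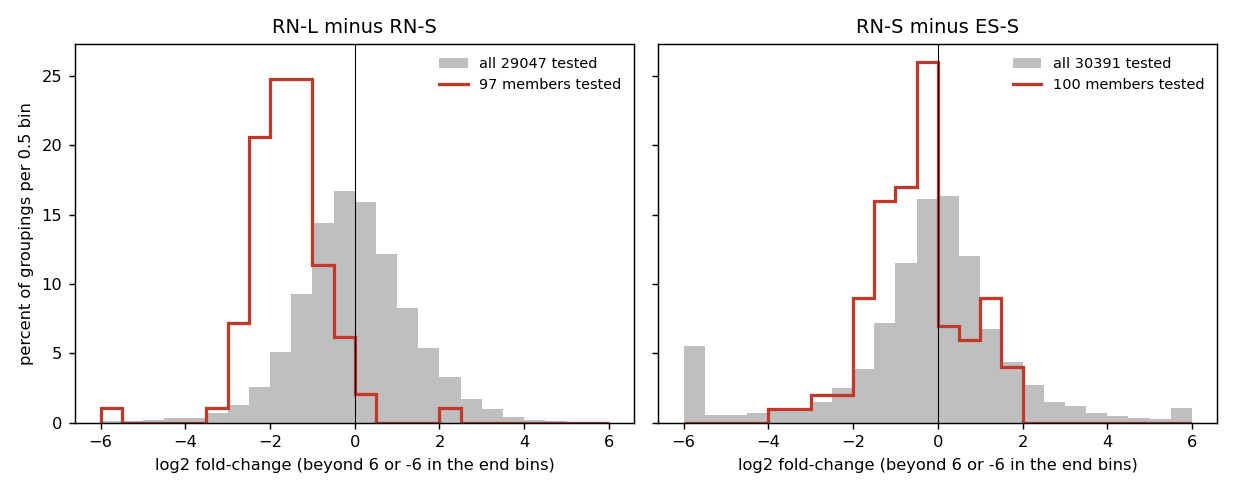
Log2 fold-changes of the members (red line) and of all groupings tested (grey) for RN-L minus RN-S (left) and RN-S minus ES-S (right), as the percent of groupings in each bin. The members center on -1.68 in RN and on -0.47 between RN-S and ES-S, against -0.04 and -0.06 for all groupings.

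Between the radial nerve cord and the esophagus of Small sea urchins, members were called in both directions. Of the 100 members, all tested, 9 were called higher and 16 lower in RN-S than in ES-S, where 16.3 and 20.3% of the 30,391 groupings tested were. The median log2 fold-change (RN-S minus ES-S) was -0.47, against -0.06 for all groupings, and 74 members had a negative value, as did 52.0% of all groupings. In CPM, 33 members had all ES-S libraries above all RN-S libraries (26.4% of the 23,188 groupings) and 13 the reverse (23.6%). Both counts of calls are below the background in this fit, which leaves out the pairing by year. The years pair the RN-S with the ES-S pools. With the year as a replicate block 9 members were called higher and 31 lower, where 17.4 and 22.4% of all groupings were. The lower calls were then above the background. With no filter on low counts 12 members were called higher and 28 lower, where 5.95 and 7.31% of all groupings were. The place of the calls against the background therefore depends on the design and the filter.

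The 5 largest increases in RN-S were those of TRINITY_DN1023_c0_g1, TRINITY_DN911_c0_g1, TRINITY_DN15353_c0_g2, TRINITY_DN6792_c0_g1 and TRINITY_DN9218_c0_g1. TRINITY_DN1023_c0_g1, with the CPM given above, had a log2 fold-change of 1.95 ± 0.32 (edgeR adjusted p = 0.000938), and every RN-S library was above every ES-S library. TRINITY_DN911_c0_g1 had 46.2, 60.4 and 6.63 CPM in RN-S and 10.2, 9.91 and 12.0 CPM in ES-S (log2 fold-change 1.91 ± 0.63, adjusted p = 0.0356), so that RN-S 2013 lay below all ES-S libraries.

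The 5 largest decreases were those of TRINITY_DN44076_c0_g1, TRINITY_DN12379_c0_g1, TRINITY_DN35_c65_g1, TRINITY_DN22261_c0_g2 and TRINITY_DN5224_c0_g1. TRINITY_DN44076_c0_g1 had 67.4, 45.8 and 70.7 CPM in ES-S and 3.84, 6.16 and 2.77 CPM in RN-S, a log2 fold-change of -3.78 ± 0.36 (edgeR adjusted p = 3.72e-05). It also had 101, 34.3 and 33.3 CPM in ES-L but no more than 10.2 CPM in any ALM or RN library, so its elevation in ALM-S 2010 was one from 4.50 and 1.85 CPM to 5.88 CPM. TRINITY_DN35_c65_g1 had 19,445, 16,669 and 23,790 CPM in ES-S and the 791 to 5635 CPM in RN-S given above, a log2 fold-change of -2.78 ± 0.63 (adjusted p = 0.00605).

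Of the linked genes, Sp-Rps24 (TRINITY_DN52_c11_g1), of the small subunit, was called lower in RN-S, with 1115, 996 and 1360 CPM in ES-S and 141, 189 and 759 CPM in RN-S (log2 fold-change -1.64 ± 0.55, edgeR adjusted p = 0.0384). This call was lost in 8 of 14 alternatives, and over all 14 the log2 fold-change ranged from -2.72 to -0.57 and the adjusted p reached 0.308. The 6 other linked ribosomal members had values of -0.91 to -1.67 that did not pass the test, and Sp-Atp5h had 0.05 ± 0.25 (adjusted p = 0.882).

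The calls between RN-S and ES-S varied with RN-S 2013, the library of the same series as ES-S. Without it, 13 members were called higher and 37 lower, where 17.5 and 23.2% of all groupings were. With RN-S 2013 as the only RN-S library, whose spread was then taken from the ES-S libraries, 2 were called higher and 5 lower, where 7.09 and 10.2% of all groupings were, and the median was -0.21 for the members and for all groupings. Without RN-S 2010 there were 2 and 7, and without RN-S 2011 there were 4 and 7, where 12.4 and 17.2% and 13.0 and 17.7% of all groupings were called. Without ES-S 2010, 2011 and 2013 in turn, 4, 3 and 7 members were called higher and 10, 15 and 8 lower, where 12.6, 13.4 and 14.1% and 17.3, 17.4 and 18.2% of all groupings were.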

How the data were processed

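RNA-Seq was made on 18 pooled libraries of *M. franciscanus*. The authors used Trimmomatic 0.38 for trimming, Trinity for the assembly, Bowtie2 2.3.4 for alignment and RSEM for counting, and the deposited estimated counts (expected counts) of each grouping are whole numbers that were not normalized. How RSEM splits reads between similar sequences affects gene families such as ribosomal proteins. The columns of fold-changes and p-values in the study's gene lists were not used.

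Counts were divided by the column sum to give CPM. Groups and years came from sample titles (another label gives 2010 for all RN libraries). The members and the gene lists were chosen with earlier results of these data known, and the likeness to the ribosomal members and the counts of groupings whose libraries do not overlap were added after the data were seen. Names of SPU genes were given to groupings by matching counts, either equal to those printed by the study in all 6 libraries of a tissue (at least 20 counts), or summing to them in a pair, or at least 95% of them (both at least 100 counts). This linked 114 of 144 genes of the ALM list and 87 of 123 of the ES list. Of the RN list, 865 genes were read with their counts, which is not the whole list, and 732 of these were linked. With printed counts shuffled among libraries, 1 gene was linked.

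RN-L was compared with RN-S, and RN-S with ES-S, on 6 libraries each in R 4.3.3 with edgeR 4.0.16 (filterByExpr, TMM factors, quasi-likelihood test, Benjamini-Hochberg adjustment over all groupings tested). Calls needed an adjusted p below 0.05 with a log2 fold-change above 1 or below -1. The test gives no SE, so the SE was derived as the absolute log2 fold-change divided by the square root of the test's F statistic. DESeq2 1.42.0, other scalings, filters and designs, and leaving out each library were alternatives. Summaries and figures were made in Python 3.11.15 with pandas 2.3.3. The edgeR test was run on simulated data with changes of 2 and 3 on the log2 scale, of which it recovered 19.8 and 57.9% for RN-L against RN-S (29,047 groupings) and 51.0 and 92.2% for RN-S against ES-S (30,391 groupings).

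Named were every linked member, the 10 with the highest smallest deviation, the 10 with the highest mean CPM, the 5 largest increases and decreases called in each comparison, and the 3 ranks on either side of the limit. TRINITY_DN2480_c0_g1, TRINITY_DN144_c0_g1, TRINITY_DN122861_c3_g1, the 3 members not tested and the members that were not the highest of their group were named after their values were seen. Tissue-restricted groupings had at least 10 CPM in every library of 1 tissue and at most 1 CPM in the others, leaving out the 3 libraries of the rule.

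Same-year deviations of RN-S and ES-S, from the same collections of animals by the study's methods, correlated at r = 0.32, 0.25 and 0.25 over 23,188 groupings, so the year pairs them. The marker lists of Immunity/Lectins (52 linked genes) and ciliated cells (4 linked genes) held no member. Of these genes, 20 and 0 were called higher and 11 and 3 lower in RN-L. Neither of the gut mucins listed as markers could be linked.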

Additional observations from a re-analysis of the deposited data

How the results depend on the processing

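Of the 100 members, 87 were kept with CPM after TMM, 85 and 80 with a pseudocount of 0.5 and 5, 93 and 87 with a minimum mean of 1 and 5 CPM and 75 with the higher of the other 2 libraries as baseline. The median deviations in ALM-S 2010, ALM-L 2011 and ES-L 2010 rose to 1.28, 1.69 and 1.94 under TMM, from 0.84, 1.24 and 1.32. Under TMM and both pseudocounts they moved by less than the spread between a group's libraries. That spread includes the library that the rule chose as high, so it is a wide yardstick.

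The count of 59 members lower in RN-L became 14 with 1 fit to all 18 libraries and 31 with column sums alone, and 26 to 48 when a library was left out. With no filter on low counts 1 member was called higher, where 3.95% of all groupings were. The year as a replicate block, where years do not pair RN-L with RN-S, gave 48 lower and none higher. Of all groupings, 6.18% were called lower and 7.01% higher in that fit. Same-year deviations of RN-S and RN-L correlated at r = -0.08, -0.09 and 0.04 over 23,188 groupings, and no RN-S library correlated best with the RN-L library of its own year. The 16 members lower and 9 higher in RN-S than in ES-S became 4 and 1 with a fit to all 18 libraries, 28 and 12 with no filter, 5 and 2 with the libraries of 1 series alone, which was chosen after seeing the data, and 31 and 9 with the replicate block. Leaving out a library gave 7 to 37 lower and 2 to 13 higher. In both comparisons the fit to all 18 libraries also took its spread from the groups that the rule used. Over all groupings the calls in RN ranged from 1242 to 5069 lower and from 1138 to 5139 higher, and between RN-S and ES-S from 3825 to 8591 lower and from 2660 to 6989 higher.

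TRINITY_DN911_c0_g1 turned to -0.65 (edgeR adjusted p = 0.324) with the libraries of 1 series alone. Sp-Atp5h (TRINITY_DN1162_c2_g1), not called between RN-S and ES-S, turned to -0.031 with column sums alone and ranged from -0.090 to 0.27 when a library was left out, negative without ES-S 2011 (-0.023) and RN-S 2013. No other named grouping changed direction in the comparison its values were given for. In the 13 alternatives for RN, the calls of TRINITY_DN274_c0_g1 and TRINITY_DN24_c0_g1 were lost in 10, that of TRINITY_DN1_c0_g1 in 6 and that of TRINITY_DN11389_c0_g1 in 4, beside those of the linked genes given above. That of TRINITY_DN35_c65_g1 was lost in none. Between RN-S and ES-S, the calls of TRINITY_DN911_c0_g1, TRINITY_DN9218_c0_g1 and TRINITY_DN6792_c0_g1 were lost in 8, 6 and 5 of 14. The causes were not tested. With 3 pools a group, a member that was not called may still differ, and 91 members carry no gene name here.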
